A study of Mus musculus with 37 samples.

Results

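The interferon response and the display of antigen on major histocompatibility complex (MHC) class I were examined in cortical astrocytes of the mouse, in 43 listed genes of known roles. All 43 were found among the 21975 genes of both expression tables. They were followed through 37 RNA-seq libraries from 20 male mice, 4 months after a unilateral controlled cortical impact (CCI) or a sham operation. Injured mice had been monitored by video and EEG and were called PTE+ where spontaneous seizures (post-traumatic epilepsy) had developed and PTE- where they had not. The ipsilateral cortex, on the impact side, gave 4 PTE+, 10 PTE- and 5 sham libraries, and the contralateral cortex gave 4, 9 and 5. The strain is CD1, an outbred stock, in the methods, whereas the labels write WT CD31. No gene was altered in any group. Sham mice had the craniectomy and the recording electrodes but no impact, so both of these are shared by every group. Astrocytes were enriched on magnetic beads against ACSA-2, a surface antigen of astrocytes, and each library came from 1 cortex of 1 mouse. In such bulk samples, fewer cells of a type and less RNA per cell cannot be told apart.

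Interferons are secreted proteins that bind receptors on nearby cells. Type I interferons act on target promoters through a complex with STAT2 and IRF9 that binds the interferon-stimulated response element (ISRE), and promoters that answer to interferon gamma often hold the gamma-activated sequence (GAS). The induced genes encode antiviral effectors and the machinery that cuts proteins into peptides and shows them to CD8 T cells on MHC class I. Astrocytes carry these receptors and can respond to interferon, although class I levels in resting neural tissue are known to be low. The 43 genes were described by role, as 4 transcription factors, 4 RNA sensors, 4 IFIT genes, 3 OAS genes, 9 other antiviral effectors, 2 genes of the ISG15 system, 6 GTPases, 3 immunoproteasome subunits, 3 peptide loading genes and 5 genes of the class I complex.

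The libraries held astrocyte RNA first. The 12 astrocyte markers summed to between 15391 and 21952 TPM in every library and none of them was at 0. Aldoc led them (median 10120 TPM), far above Slc1a3 (median 2097 TPM). TPM is an abundance scaled by gene length and to the same total in each library, so levels of different genes can be compared, but the depth of each library is unknown. Markers of other cells were present as well. The 12 microglia and macrophage markers summed to between 120.3 and 957 TPM, the 12 endothelial markers to between 594 and 2874 TPM, and the 10 T and NK cell markers to between 0.55 and 21.0 TPM. The 8 oligodendrocyte markers summed to between 523 and 4476 TPM, the 8 neuron markers to between 41.7 and 711 TPM and the 8 mural and fibroblast markers to between 125 and 670 TPM. The ipsilateral library of PTE- mouse 9_14 stood apart, with 10727 genes above 0 TPM against 15599 to 18534 in the other 36 libraries. It listed 12 of the 43 genes at 0 and held the highest ipsilateral value of 11 others, while it held the highest value of 25.0% of all genes with a mean above 5 TPM. Of the 12 microglia and macrophage markers, 7 were at 0 there.

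The class I complex led the order of levels. H2-D1, a classical class I heavy chain, averaged 434 TPM over the 37 libraries (148 to 1390 TPM), followed by the class I light chain B2m (355 TPM), Ifitm3 (336 TPM) and the second classical heavy chain H2-K1 (287 TPM). Ifi27 (230.1 TPM), Ifitm2 (173 TPM), Psmb10 (112 TPM), Tapbp (96.5 TPM) and Tap2 (64.5 TPM) came next. Neighbours in this order overlapped widely across libraries, since B2m ranged from 188 to 696 TPM and Ifitm3 from 135 to 602 TPM. The antiviral sensors and effectors lay far lower. Ifih1 (MDA5, a sensor of long double-stranded RNA) averaged 1.06 TPM and Oas2 (a synthetase of the messenger that activates RNase L) 0.439 TPM.

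The 5 interferon genes that were looked up were at or near 0. Ifnb1, Ifna4 and Ifnl2 were listed at 0 TPM in all 37 libraries. Ifng was at 0 in 19 libraries and reached at most 0.32 TPM, and Ifnk was at 0 in 35. The receptor chains were present throughout, with medians of 51.1 TPM for Ifnar1, 111 TPM for Ifnar2, 66.0 TPM for Ifngr1 and 26.5 TPM for Ifngr2.

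The mean of log2(TPM + 1) over the 43 genes gives 1 value for each library. Ipsilaterally it was 4.36 ± 0.26 (SD, n = 4) in PTE+, 4.23 ± 0.24 (SD, n = 10) in PTE- and 4.08 ± 0.54 (SD, n = 5) in sham mice. Contralaterally it was 4.35 ± 0.61 (SD, n = 4), 4.25 ± 0.23 (SD, n = 9) and 4.21 ± 0.58 (SD, n = 5). The groups overlapped on both sides, and this mean was not tested. In 2 mice the value stood out. Sham mouse 9_10 had a mean of 4.99 ipsilaterally and 5.14 contralaterally, while the other 4 sham mice lay between 3.70 and 4.13 and between 3.71 and 4.30. Without 9_10, singled out after its values were seen, the sham mean was 3.85 ± 0.20 (SD, n = 4) ipsilaterally and 3.98 ± 0.30 (SD, n = 4) contralaterally. Leaving out the highest sham mouse lowers the sham mean and SD by construction, so the wider gap to injured mice was not read as a difference. PTE+ mouse 9_17 had 4.69 and 5.20, the latter the highest of all 37 libraries.

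**Figure D1:**
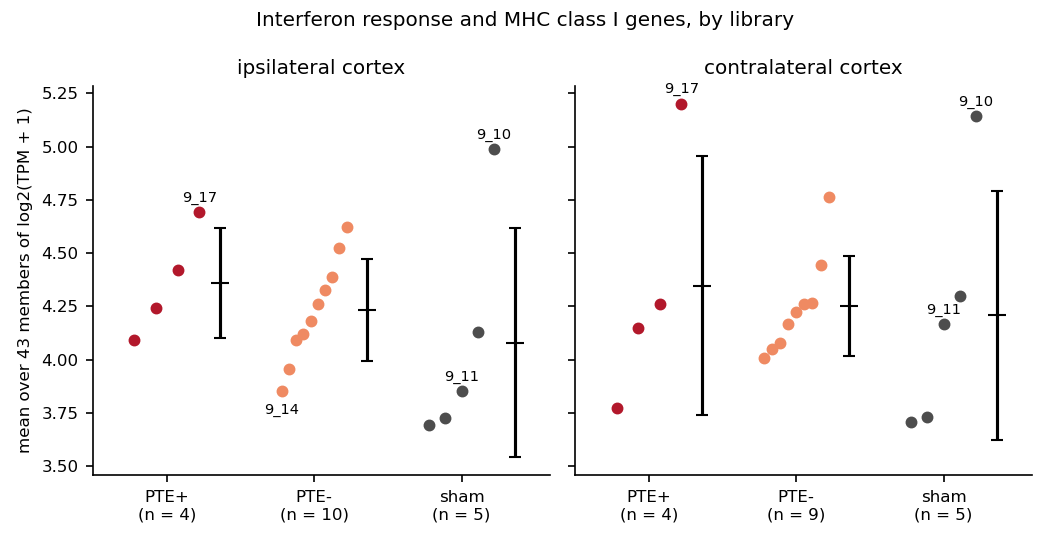
Mean log2(TPM + 1) over the 43 genes (y axis) in each library, by group, for the ipsilateral (left) and contralateral cortex (right). Points are libraries, the horizontal and vertical bars give the group mean ± SD, and sham mouse 9_10 lies above the other sham mice in both hemispheres (4.99 and 5.14).

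Sham mouse 9_10 carried its high levels in both hemispheres. It was above the median of the hemisphere for 41 of the 43 genes on either side, and held the highest value for 14 genes among 19 ipsilateral libraries and for 15 among 18 contralateral ones. Over all genes with a mean above 5 TPM, the same mouse held the highest value for 3.69% ipsilaterally and 6.65% contralaterally. Its microglia and macrophage markers summed to 957 TPM ipsilaterally and 755 TPM contralaterally, the highest of either side, with none of the 12 at 0. The other libraries reached 520.4 and 453 TPM. Its endothelial markers summed to 2002 and 1923 TPM, and its oligodendrocyte (4476 TPM) and T and NK cell markers (21.0 TPM) were the highest of the ipsilateral side. The part of these cells in the result was not tested. Sham mouse 9_9 had the next highest microglia sums among sham mice (335 and 453 TPM), with member means of 3.70 and 3.73. Sham mouse 8_16 had the highest contralateral endothelial sum of the sham mice (2148 TPM) and their next highest member mean (4.30). Ipsilaterally it again had the next highest member mean (4.13). There its endothelial sum (1190 TPM) lay below that of sham mouse 8_15 (1355 TPM), which had a member mean of 3.73. PTE+ mouse 9_17 was above the contralateral median for 43 of 43 genes and highest for 21, where it was highest for 11.8% of all genes, with the highest endothelial sum (2874 TPM) and a microglia sum of 452 TPM.

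**Figure D2:**
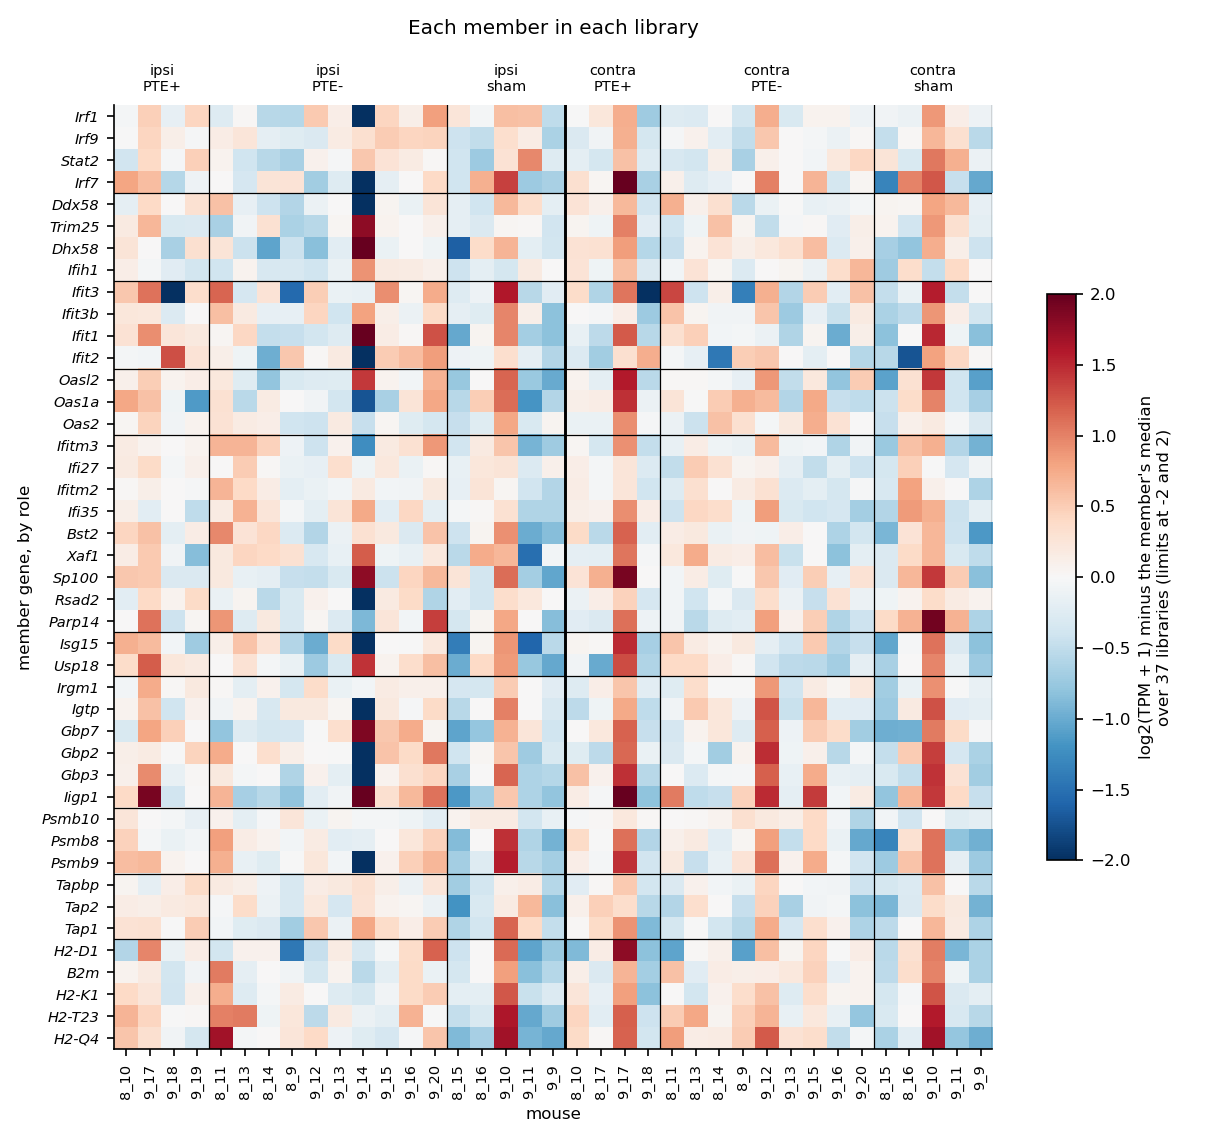
Each of the 43 genes (rows, grouped by role) in each of the 37 libraries (columns, by hemisphere, group and mouse), as log2(TPM + 1) minus the gene's median over the libraries, with colours limited at -2 and 2. Sham mouse 9_10 and contralateral PTE+ mouse 9_17 are red across roles, and ipsilateral PTE- mouse 9_14 mixes 12 genes at 0 with 11 at their highest ipsilateral value.

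The same promoter elements recur among these genes. RefSeq promoter windows (GRCm38.p6, 250 bases before to 50 after the start site) were found for 36 of the 43, all but Dhx58, Oas2, Ifi27, Parp14, Usp18, Iigp1 and Tap2. The ISRE letters GAAANNGAAA, searched on both strands, occurred in 19 of the 36 (52.8%), against 3.99% of 27025 genes with a window. The GAS letters TTCNNNGAA, a palindrome, occurred in 9 of the 36 (25.0%), against 9.55% of genes. Both occurred in 5 and at least 1 of them in 23. By role, counting genes with a window, the ISRE letters were found for 5 of 5 GTPases, 3 of 4 IFIT genes and 2 of 5 class I genes (B2m and H2-T23). They were found for 0 of 3 immunoproteasome and 0 of 2 peptide loading genes. A gene with several windows was counted where any of them held the letters, as for Gbp3 (1 of 2 windows). Such a match is a description of the letters, and their absence says only that these letters are not in the window. The windows below are printed 5′ to 3′ on the gene's strand with the matches in capitals. Ifit3 (chr19:34583279-34583578, + strand) and Ifit3b (chr19:34607707-34608006, +) are shown because they are near copies, Isg15 (chr4:156200769-156201068, -) for 3 overlapping matches, B2m (chr2:122147437-122147736, +) and H2-T23 (chr17:36032652-36032951, -) as class I genes with a match, and Tapbp (chr17:33919228-33919527, +), a gene that was called after injury, as one without.
Ifit3: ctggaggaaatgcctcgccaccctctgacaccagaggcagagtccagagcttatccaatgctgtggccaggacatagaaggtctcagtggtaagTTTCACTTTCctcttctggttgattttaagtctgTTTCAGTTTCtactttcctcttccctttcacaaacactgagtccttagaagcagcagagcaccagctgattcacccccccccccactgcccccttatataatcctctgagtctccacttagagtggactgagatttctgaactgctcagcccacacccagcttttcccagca
Ifit3b: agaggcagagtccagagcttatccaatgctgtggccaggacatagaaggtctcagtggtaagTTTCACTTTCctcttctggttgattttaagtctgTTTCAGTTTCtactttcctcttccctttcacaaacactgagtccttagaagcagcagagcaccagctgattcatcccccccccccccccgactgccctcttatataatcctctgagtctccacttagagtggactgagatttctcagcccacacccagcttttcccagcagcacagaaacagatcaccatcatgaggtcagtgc
Isg15: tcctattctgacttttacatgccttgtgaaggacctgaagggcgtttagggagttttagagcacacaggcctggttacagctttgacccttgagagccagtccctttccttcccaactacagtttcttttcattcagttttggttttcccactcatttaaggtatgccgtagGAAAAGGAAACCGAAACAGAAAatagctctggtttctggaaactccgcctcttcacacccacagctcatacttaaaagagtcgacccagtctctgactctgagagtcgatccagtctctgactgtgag
B2m: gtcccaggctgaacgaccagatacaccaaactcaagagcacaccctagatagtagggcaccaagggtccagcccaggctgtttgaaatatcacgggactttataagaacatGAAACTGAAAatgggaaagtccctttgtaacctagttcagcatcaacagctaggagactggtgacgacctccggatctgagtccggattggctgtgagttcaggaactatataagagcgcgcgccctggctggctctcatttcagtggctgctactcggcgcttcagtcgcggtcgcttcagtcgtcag
H2-T23: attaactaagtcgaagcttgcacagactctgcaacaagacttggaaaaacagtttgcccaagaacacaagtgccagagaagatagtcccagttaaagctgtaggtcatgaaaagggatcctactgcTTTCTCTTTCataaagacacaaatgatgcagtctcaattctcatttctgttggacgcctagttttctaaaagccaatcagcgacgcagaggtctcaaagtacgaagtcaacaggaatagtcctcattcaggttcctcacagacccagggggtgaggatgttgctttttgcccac
Tapbp: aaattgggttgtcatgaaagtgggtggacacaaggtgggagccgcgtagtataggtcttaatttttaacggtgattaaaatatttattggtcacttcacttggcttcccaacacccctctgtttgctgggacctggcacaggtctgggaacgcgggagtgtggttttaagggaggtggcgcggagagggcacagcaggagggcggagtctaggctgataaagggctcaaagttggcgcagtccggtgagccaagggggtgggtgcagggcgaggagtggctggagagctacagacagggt
The ISRE matches began 156 and 122 bases before the start site in Ifit3, 188 and 154 bases before it in Ifit3b, 139 before it in B2m and 124 before it in H2-T23. In Isg15 they began 78, 72 and 66 bases before it. The Ifit3 and Ifit3b windows differed at 2 of 260 aligned bases (99.23% identity) and were offset against each other. Bases inserted or missing in either window were left out of this count.

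The first comparison asked whether injury changed these genes on the side of the impact. In the ipsilateral cortex 29 of the 36 members tested had a higher mean in injured mice, and the median log2 fold change of the members was 0.20, against -0.01 over all 10434 genes tested. Tapbp, which encodes tapasin, the chaperone that tethers class I molecules to the peptide transporter, rose in injured mice and was the 1 member called. With the study's thresholds, a gene was called where limma on log2(TPM + 1) gave an unadjusted p under 0.05 and the groups differed by 1.2-fold or more. Genes were tested where a group mean exceeded 5 TPM. Of all genes tested, 1.24% were called higher and 0.383% lower, so 1 of 36 members called higher is close to the background, and 0 were called lower. The higher share among all calls was 129 of 169 as deposited, 201 of 318 after quantile normalization and 115 of 177 after median centring. No member had an adjusted p under 0.05 (limma with Benjamini-Hochberg adjustment, smallest 0.9997). Trim25, Iigp1, Oas1a, Parp14, Ifih1, Oas2 and Dhx58 were below the limit on TPM and were not tested here.

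Tapbp (ENSMUSG00000024308) lies on chromosome 17 from 33915899 to 33929292 on GRCm38. Ipsilaterally it measured 101, 85.2, 106 and 126 TPM in PTE+ mice 8_10, 9_17, 9_18 and 9_19, from 77.7 to 119.6 (median 106) TPM in PTE- mice, and 59.3, 74.6, 105, 107 and 64.7 TPM in sham mice 8_15, 8_16, 9_10, 9_11 and 9_9. The 14 injured mice all exceeded the median of the sham mice and 6 exceeded every sham mouse, so the groups overlap. The means were 103 ± 13.7 TPM (SD, n = 14) and 82.0 ± 22.4 TPM (SD, n = 5), a log2 fold change of 0.36 (standard error 0.13, limma p = 0.0139, two-sided exact permutation p = 0.0123 over 11628 splits). Mouse names begin with 8 or 9, a prefix whose meaning is not stated, and the difference was 0.52 among the 7 mice of prefix 8 and 0.24 among the 12 of prefix 9. The call was lost without sham mouse 8_15 (0.26) or 9_9 (0.29). On the contralateral side Tapbp measured 82.96, 99.04, 139 and 75.2 TPM in the PTE+ mice, from 72.3 to 130.5 (median 92.8) in the PTE- mice and 76.1, 79.99, 146, 97.9 and 66.6 in the sham mice, with a log2 fold change of 0.07.

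Apart from Tapbp, genes of the class I complex and its peptide supply were not called, although most had a higher mean after injury. The 5 class I genes had positive log2 fold changes, from 0.06 for H2-K1 to 0.55 for H2-Q4, a nonclassical heavy chain, and the 3 peptide loading genes lay between 0.12 and 0.36. The immunoproteasome subunits, which replace catalytic subunits of the proteasome under interferon, lay between 0.00 for Psmb10 and 0.31 for Psmb8. H2-D1 measured 268, 790.2, 366 and 448 TPM in the PTE+ mice, from 148 to 910.0 (median 409) in the PTE- mice and 302, 402, 879.9, 194 and 241 in the sham mice, and sham mouse 9_10 was the second highest ipsilateral library. Psmb10 measured 134, 113, 109.9 and 101 TPM in the PTE+ mice, from 96.9 to 133 (median 109.6) in the PTE- mice and 118, 126, 126, 87.3 and 102 in the sham mice, with groups that overlap fully.

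Of the antiviral genes, the leading effector, ISG15 system and OAS members overlapped between groups. Among the effectors, Ifitm3, which hinders the entry of enveloped viruses, measured 358, 336, 319.6 and 335 TPM in the PTE+ mice, from 135 to 582 (median 378) in the PTE- mice and 245, 361, 468, 167 and 194 in the sham mice (log2 fold change 0.39, not called). Isg15, a ubiquitin-like modifier, measured 19.8, 18.8, 11.3 and 6.81 TPM in the PTE+ mice, from 0 to 17.9 (median 12.3) in the PTE- mice and 3.88, 12.2, 22.4, 3.24 and 7.72 in the sham mice. Oasl2, an OAS-like protein, measured 10.1, 13.7, 9.88 and 10.4 TPM in the PTE+ mice, from 4.99 to 26.7 (median 8.43) in the PTE- mice and 5.15, 9.39, 22.4, 5.22 and 4.14 in the sham mice. In each of these genes sham mouse 9_10 (the third of the sham values) lay above the other 4 sham mice.

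The leading sensor, factor and GTPase were not called either. Ddx58 (RIG-I, a sensor of viral RNA) measured 6.34, 9.99, 7.33 and 9.32 TPM in the PTE+ mice, from 1 to 11.5 (median 6.62) in the PTE- mice and 6.36, 5.29, 12.1, 9.64 and 6.25 in the sham mice, and the low value of 1 is mouse 9_14. Irf1, the interferon regulatory factor induced by interferon gamma, measured 26.8, 38.6, 24.6 and 37.6 TPM in the PTE+ mice, from 0 to 49.4 (median 29.1) in the PTE- mice and 32.97, 26.7, 42.4, 41.8 and 19.1 in the sham mice, with mouse 9_14 at 0. Irgm1, a GTPase of vacuole defence and autophagy, measured 38.7, 67.8, 41 and 46.2 TPM in the PTE+ mice, from 31.4 to 51.9 (median 41.7) in the PTE- mice and 31.7, 31.3, 57.9, 40.2 and 34.1 in the sham mice. Irf9, the DNA-binding partner of STAT2, had a log2 fold change of 0.36 that was not called by limma (p = 0.0607), while its exact permutation p was 0.0417, with 14 of 14 injured mice higher than the median sham mouse.

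**Figure D3:**
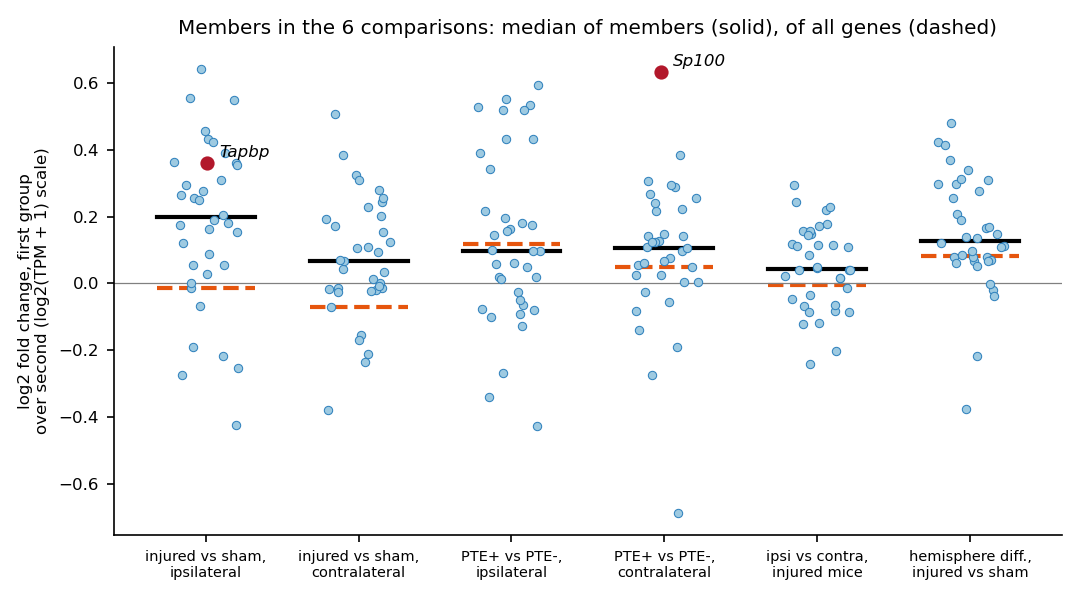
log2 fold change of each tested member (y axis, log2(TPM + 1) scale) in the 6 comparisons, with black bars at the median of the members and dashed bars at the median of all genes tested. Tapbp (0.36) and Sp100 (0.63) in red are the called members.

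Sham mouse 9_10 decided how far the members stood from sham levels. Each sham mouse had been set to be left out in turn, and 9_10 was singled out after its values were seen. Leaving out the sham mouse with the highest mean over the members raises their distance from sham by construction. Without it, 14 of 36 members were called higher after injury in the ipsilateral cortex, where 1.35% of all genes were called higher and 0.565% lower, and 0 members were called lower. They were B2m (0.42), H2-K1 (0.36), H2-T23 (0.87), H2-Q4 (1.06), Tapbp (0.46), Tap2 (0.47) and Psmb8 (0.72) of the class I pathway, and Irf9 (0.50), Ifit1 (0.96), Oasl2 (0.72), Bst2 (0.73), Ifitm2 (0.31), Ifitm3 (0.59) and Usp18 (0.84) of the interferon response, all as log2 fold changes. The median of the members moved to 0.42 and of all genes to -0.04, and 32 of 36 were positive. No adjusted p of a member fell under 0.05 (limma, smallest 0.782). Markers of other cells also differed between these mice. The microglia and macrophage sum was 127 to 335 TPM in the 4 remaining sham mice. It was 120.3 to 520.4 TPM (median 362) in PTE- and 171 to 367 TPM (median 253) in PTE+ mice. The oligodendrocyte sum was 523 to 4006 TPM in the 4 remaining sham mice. It was 774 to 2270 TPM (median 1347) in PTE- and 1191 to 2337 TPM (median 1439) in PTE+ mice, so these ranges overlap. The part of these cells in the result was not tested. Leaving out 8_15, 8_16, 9_9 or 9_11 instead gave 0, 2, 0 and 3 called members. Of all genes, 1.55%, 1.32%, 1.69% and 4% were then called in either direction. Without both 9_10 and PTE- mouse 9_14, an alternative added after the data were seen, 19 members were called, where 4.55% of all genes were called in either direction, and 36 of 36 were positive (median 0.45, smallest adjusted p 0.2303 in limma).

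H2-Q4 shows the weight of sham mouse 9_10 most plainly. It lies on chromosome 17 from 35379617 to 35385290 on GRCm38 (ENSMUSG00000035929). In the ipsilateral cortex sham mice 8_15, 8_16, 9_10, 9_11 and 9_9 had 4.2, 5.04, 29.4, 4 and 3.69 TPM, and the 14 injured mice ranged from 6.51 to 29.4 TPM (median 8.45). Every injured mouse lay above 4 of the sham mice and only 1 lay above sham mouse 9_10. H2-T23 (Qa-1, a ligand of NK cell receptors) had 24.6, 28, 108, 16.5 and 20.8 TPM in the same sham mice and 23.8 to 72.3 TPM (median 37.3) in injured mice. Psmb8 (LMP7) had 21.2, 39.5, 111, 25.6 and 20.01 TPM in sham and 33.95 to 70.2 TPM (median 40.6) in injured mice. Psmb9 (LMP2) had 6.33, 8.88, 33.9, 7.05 and 6.37 TPM in sham mice, and 13 of 14 injured mice lay above all of them but 9_10, the exception being mouse 9_14 at 0. Without 9_10, H2-Q4 (limma p = 0.00137, adjusted p 0.9998) and Psmb8 (limma p = 0.000899, adjusted p 0.782) had the smallest unadjusted p-values among members. With all mice neither gene was called. Mouse 9_10 was the highest sham mouse for both, so leaving it out lowers these p-values by construction, and they were not read as a difference.

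**Figure D4:**
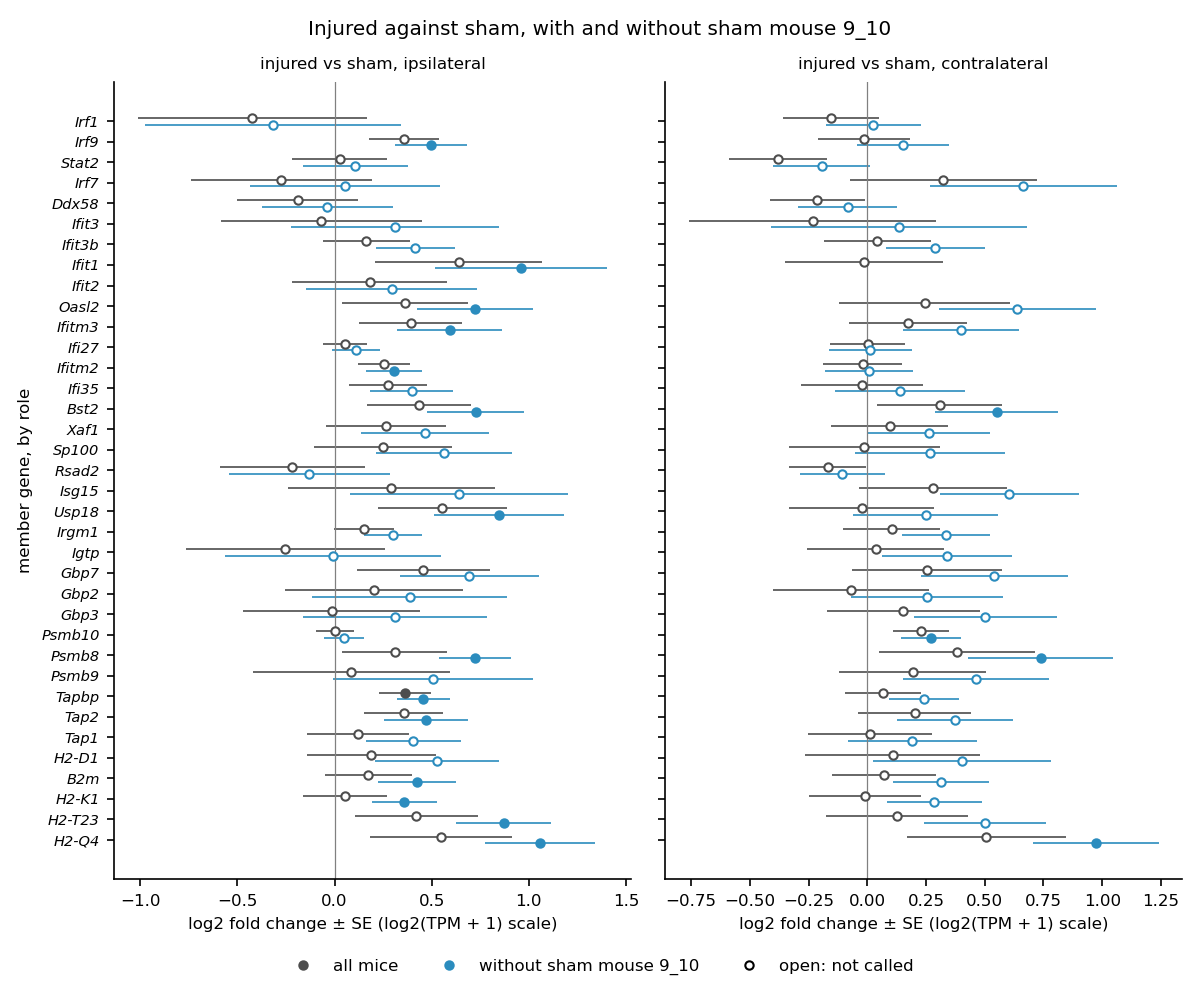
log2 fold change ± standard error of each tested member, injured over sham (x axis, log2(TPM + 1) scale), with all mice (grey) and without sham mouse 9_10 (blue), ipsilateral (left) and contralateral (right). Filled points are called, 1 and 0 with all mice and 14 and 4 without 9_10.

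In the contralateral cortex, which was not struck, no member was called. The median log2 fold change of the 35 members tested was 0.07, with 22 positive, against -0.07 over all 10556 genes. Background calls were 0.54% higher and 3.51% lower, and this split depended on the scaling of the libraries, with 57 of 428 called genes higher as deposited, 203 of 359 after quantile normalization and 255 of 410 after median centring. Median centring moved the median of all genes from -0.07 to 0.03 and that of the members from 0.07 to 0.17. No member reached an unadjusted p under 0.05 in limma or the exact permutation test (smallest exact p 0.0633 over 8568 splits).

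Without sham mouse 9_10, 4 of 34 members were called higher contralaterally and 0 lower, where 0.553% and 2.38% of all genes were called. On this side too, 9_10 had the highest sham mean over the members. Leaving it out raises their distance from sham by construction, which does not hold for all genes. The count was therefore not read against the background. These were H2-Q4 (0.97), Psmb8 (0.74), Bst2 (0.55), a tetherin that retains virions on the cell surface, and Psmb10 (0.27). H2-Q4 had 5.13, 7.23, 29.6, 4.59 and 3.85 TPM in sham mice 8_15, 8_16, 9_10, 9_11 and 9_9 and 5.76 to 21.4 TPM (median 10.6) in injured mice, so 11 of 13 injured mice lay above all sham mice but 9_10. Psmb10 measured 111, 114, 130.0 and 114 TPM in the PTE+ mice, from 73.8 to 148 (median 119) in the PTE- mice and 108, 86.04, 113, 95.2 and 98.4 in the sham mice, and 12 of 13 injured mice lay above the 4 other sham mice. The sham, PTE+ and PTE- mice are largely the same on both sides, so the hemispheres are not independent of each other.

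The difference between the name prefixes was not tested, and each holds only 2 or 3 sham mice. Ipsilaterally the median difference of the members between injured and sham mice was 0.28 within prefix 8 (5 and 2 mice, 32 of 36 positive) and 0.08 within prefix 9 (9 and 3 mice, 24 of 36 positive), which holds mouse 9_10. Contralaterally it was 0.21 (26 of 35 positive) and -0.03 (14 of 35 positive).

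The comparison at the centre of the study was PTE+ against PTE- mice. In the ipsilateral cortex 0 of 37 members were called, beside a background of 0.325% higher and 0.248% lower. The median log2 fold change of the members was 0.10, below the 0.12 of all 10473 genes. Quantile normalization moved the median of all genes to 0.01 and of the members to 0.02, so the members shared the shift of all genes. The called genes that were higher numbered 34 of 60 as deposited, 45 of 135 after quantile normalization and 14 of 50 after median centring. No member had an unadjusted p under 0.05 in limma or in the exact test (smallest exact p 0.119 over 1001 splits).

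In the contralateral cortex 1 of 35 members, Sp100, was called higher in PTE+ mice. Of all genes tested, 1.95% were called higher and 0.844% lower, so this count is close to the background. Sp100 is a component of PML nuclear bodies, which restrict viral genomes. Of the 35 members 28 were positive, with a median of 0.11 against 0.05 over all 10423 genes. Among all calls 203 of 291 were higher as deposited, 125 of 386 after quantile normalization and 148 of 361 after median centring, and Sp100 was called under each (0.57 under both). Sp100 (ENSMUSG00000026222, chromosome 1 from 85649988 to 85709998 on GRCm38) measured 8.53, 11.8, 28.3 and 6.89 TPM in PTE+ mice 8_10, 8_17, 9_17 and 9_18, from 5.68 to 10.4 (median 6.87) TPM in PTE- mice and 5.44, 11.5, 20.1, 10.2 and 3.42 TPM in sham mice. All 4 PTE+ mice lay above the PTE- median and 2 above every PTE- mouse, while sham mouse 9_10 at 20.1 TPM lay above 3 of the PTE+ mice. The log2 fold change was 0.63 (standard error 0.28, limma p = 0.0402, adjusted p 0.999, two-sided exact permutation p = 0.0462 over 715 splits). It was 0.53 within prefix 8 (2 and 4 mice) and 0.76 within prefix 9 (2 and 5 mice).

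The call and the direction of the members depended on single PTE+ mice. Without mouse 9_17 Sp100 had a log2 fold change of 0.24 (limma p = 0.294) and the median of the 34 members tested was -0.20, with 4 positive, while the median of all genes was -0.01. B2m was then called lower (-0.43), where 1.96% of all genes were called in either direction. Without mouse 8_17 Sp100 was also not called (0.64, limma p = 0.0692) and Bst2 was (0.53), where 4.14% of all genes were called. Leaving out mouse 9_18 moved the members the other way, to a median of 0.27 with 35 of 36 positive (all genes 0.08). Sp100 was then at 0.87 (limma p = 0.00887). Sp100 measured 10.5, 10.4, 5.48 and 5.44 TPM in the PTE+ mice, from 4.64 to 26.2 (median 6.03) in the PTE- mice and 8.48, 5.13, 16.2, 3.93 and 2.84 in the sham mice ipsilaterally, where its log2 fold change was 0.02.

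Mouse 9_17 also had the highest contralateral level of some leading members. H2-D1 measured 218, 447, 1390.3 and 226 TPM in the PTE+ mice, from 189 to 613 (median 417) in the PTE- mice and 275, 498, 819, 214 and 259 in the sham mice, and the value of 1390 TPM is mouse 9_17. Ifitm3 measured 329, 252, 602 and 228 TPM in the PTE+ mice, from 210.4 to 494 (median 299.5) in the PTE- mice and 192, 479, 524, 213 and 165 in the sham mice. Isg15 measured 12.2, 11.97, 34.6 and 7.05 TPM in the PTE+ mice, from 7.45 to 17.6 (median 12.4) in the PTE- mice and 5.17, 11.5, 25.9, 9.44 and 6.2 in the sham mice. In these genes mouse 9_17 (the third of the PTE+ values) lay above every other library of that hemisphere, and mouse 9_18 was the lowest or next to lowest PTE+ mouse. Oasl2 measured 9.94, 8.03, 30.1 and 6.14 TPM in the PTE+ mice, from 5 to 17.98 (median 9.51) in the PTE- mice and 3.97, 11.9, 26.7, 6.87 and 3.9 in the sham mice, again with mouse 9_17 at the top. Irf1 measured 27.4, 32.5, 46.3 and 16.5 TPM in the PTE+ mice, from 21.1 to 46.1 (median 25.7) in the PTE- mice and 26.1, 25.3, 51.1, 30.4 and 25.5 in the sham mice. Irgm1 measured 33.4, 44.3, 59.3 and 34.5 TPM in the PTE+ mice, from 30.2 to 73.9 (median 41.3) in the PTE- mice and 24.4, 36.6, 76.3, 39.9 and 36.3 in the sham mice and Ddx58 9.02, 7.97, 12.1 and 5.38 TPM in the PTE+ mice, from 4.71 to 12.6 (median 7.15) in the PTE- mice and 7.69, 7.52, 13.4, 12.1 and 6.42 in the sham mice, and for Irf1, Irgm1 and Ddx58 sham mouse 9_10 was the highest library.

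Whether the struck side differed from the other side was asked within injured mice. In the 12 injured mice with both hemispheres, 0 of 36 members were called, beside a background of 1.66% higher and 1.04% lower ipsilaterally, and the median difference was 0.04 against -0.01 over all 10350 genes. This limma fit did not pair the 2 libraries of a mouse, and no member had an unadjusted p under 0.05 in it. With the mouse as a replicate block, which pairs them, the number of members called was also 0, where 4.51% of all genes were called. All 4 IFIT genes were higher ipsilaterally, by 0.11 to 0.29, and the 5 class I genes lay between -0.09 and 0.05. Ifit3b was higher by 0.15 in the exact sign-flip test (p = 0.0234, 4096 flips). Being below the 1.2-fold limit, it could not be called by limma. Ifih1 (-0.23, exact p = 0.0132) and Dhx58 (LGP2, a helicase related to RIG-I, -0.40, exact p = 0.0356) were lower but below the limit on TPM. These are 3 of 43 members examined, and the smallest adjusted p of a tested member was 0.9996 in limma.

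The difference between hemispheres was then compared between injured and sham mice, which had a craniectomy on the same side. Again 0 of 36 members were called, while 5.9% of all genes were called higher and 0.598% lower, and no member had an unadjusted p under 0.05 in limma. The median of the members was 0.13 and that of all genes 0.08. Quantile normalization moved these to 0.00 and -0.01, and the calls that were higher from 631 of 695 to 248 of 484 (224 of 606 after median centring). Parp14, a mono-ADP-ribosyltransferase, differed by 0.89 (exact p = 0.0142 over 6188 splits) but was below the limit on TPM, with a highest value of 6.16 TPM in any library.

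A mouse's level on one side was a guide to its level on the other for many members. Among the 35 members with a mean above 5 TPM, the correlation of log2(TPM + 1) between hemispheres over 17 mice had a median of 0.65, and 25 of 35 (71.4%) lay above 0.5, against a median of 0.47 and 44.4% over 10249 genes. Without sham mouse 9_10 the medians were 0.53 and 0.47. The lowest members were Gbp2 (0.17) and Ifi35 (0.21). H2-Q4 reached 0.80 and H2-D1 0.75. Both libraries of a mouse share the animal, so these values describe mice and not conditions.

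Ifit3, which with its relatives binds foreign 5′ ends of RNA, had the highest correlation of the members. Its Pearson r was 0.98 and its Spearman rho 0.94 (permutation p = 1e-05 for each, the smallest that 100000 permutations can give, adjusted p 0.00107 and 0.0019 over all genes). Only 5 of 10249 genes had an r at least as high, Ifit3 among them. Without the 2 mice farthest from the median r was 0.95, and without mouse 9_10 it was 0.98. Ipsilaterally Ifit3 measured 52.2, 76.4, 3.26 and 45.5 TPM in the PTE+ mice, from 11.4 to 80.5 (median 39.8) in the PTE- mice and 29.4, 32.9, 110.2, 23.9 and 30.2 in the sham mice. Contralaterally it measured 45.9, 23.1, 75.4 and 2.78 TPM in the PTE+ mice, from 13.2 to 91.2 (median 38.6) in the PTE- mice and 25.3, 32.2, 107, 25.2 and 35.5 in the sham mice. PTE+ mouse 9_18 was lowest on both sides (3.26 and 2.78 TPM), PTE- mouse 8_9 was next (11.4 and 13.2 TPM), and sham mouse 9_10 was highest on both.

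**Figure D5:**
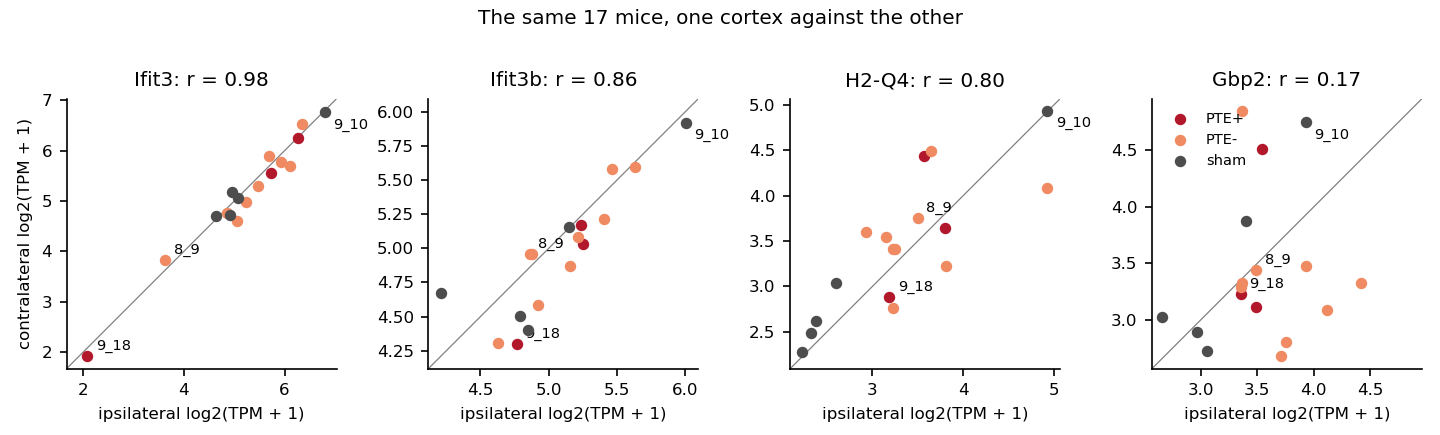
Ipsilateral (x axis) against contralateral (y axis) log2(TPM + 1) of Ifit3, Ifit3b, H2-Q4 and Gbp2 in the 17 mice with both hemispheres, coloured by group, with the line of equal values. Ifit3 (r = 0.98) lies along the line from mouse 9_18 to mouse 9_10, while Gbp2 (r = 0.17) does not.

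In both low mice Ifit3 was low relative to its near copy. Ifit3b (chromosome 19 from 34607970 to 34613401) lies beside Ifit3 (34583531 to 34588731) on GRCm38, and their coding sequences of 1209 bases differ at 11 (99.09% identity). In mouse 9_18 Ifit3b had 26.2 TPM ipsilaterally and 18.7 TPM contralaterally, against 17.5 to 63.3 TPM over all libraries, so it was the lowest contralateral and among the lower ipsilateral libraries. In mouse 8_9 it had 28.1 and 30.03 TPM. Ifit3 made up 11.1% and 12.9% of the sum of both genes in that mouse and 28.9% and 30.5% in mouse 8_9, but 36.3% to 68.3% in the other 33 libraries. The sum itself had an r of 0.95 between hemispheres (0.93 without these mice). The share had an r of 0.99 between hemispheres, and of 0.94 without these mice. How reads were divided between sequences this alike is uncertain, so the level of either gene alone is less certain than their sum. The same holds more weakly for the class I heavy chains. Over aligned bases, the coding sequence of H2-Q4 was 90.42% identical to H2-D1 and 90.8% to H2-Q7, and H2-D1 was 91.9% identical to H2-K1.

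Other genes of the pathway were read for context. Of 95 further genes of interferon signalling and antigen presentation, 54 to 62 were tested in each comparison, and 0 or 1 was called in each of the 5 comparisons of levels. Nmi, an interferon-induced protein that binds STATs, was called higher after injury ipsilaterally (0.29, standard error 0.13, exact permutation p = 0.00748, 13 of 14 injured mice above the sham median). H2-DMa, of the class II peptide exchange machinery, was called higher in PTE+ mice contralaterally (0.48, exact permutation p = 0.0434). Cxcl10, a chemokine induced by interferon, was called higher ipsilaterally than contralaterally in injured mice (0.72, exact p = 0.0229, higher in 8 of 12 mice). In the hemisphere difference between injured and sham mice Stat3 (0.40), Irf2 (0.59) and Cmpk2 (0.43) were called, beside the background of 5.9%. None of these had an adjusted p under 0.05 (limma).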

How the data were processed

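The authors deposited 1 table of TPM for each hemisphere, with 1 column for each library. Per the study's methods, cDNA was made with the SMART-Seq v4 kit and sequenced on a NovaSeq as paired reads, reads were trimmed with Trim Galore 0.6.4, and TPM was estimated with RSEM 1.2.28 and Bowtie2 2.4.1 on mm10. The release of the gene annotation is not given in the sources used here, and read counts were not used here, so the DESeq2 1.36.0 test of the study was not repeated.

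The study's methods state that 1 PTE+ and 1 PTE- animal were excluded. By the labels, PTE+ mouse 8_17 has no ipsilateral library, PTE+ mouse 9_19 and PTE- mouse 9_14 have no contralateral one, and every other mouse has both. Libraries were grouped by the labels. TPM was transformed to log2(TPM + 1), a scale that understates the change of low genes, and compared with limma 3.58.1 in R 4.3.3 (eBayes with a trend) across all genes with a mean above 5 TPM in a group compared. The prefix of the mouse name was treated as a possible batch. Single members were also tested by exact permutation of mice, and by sign flips within mice for the hemispheres. The scripts were tested on simulated data. Python 3.11.15, scipy 1.17.1 and Biopython 1.88 were used, with motifs in RefSeq windows and coding sequences from GENCODE on GRCm38. Hemispheres were paired by the mouse name in the labels. The main limma fit between the hemispheres of injured mice left this pairing out. For 16 of 17 mice the deviations from the group means correlated above 0.1 between sides (median 0.41 over 10249 genes).

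The 43 genes and all lists were chosen with earlier results of these data known. Values were given by mouse (for PTE- mice as the lowest, median and highest) for called members and for the most abundant member of each role, and other pathway genes were named where called. The values of 1 other pathway gene are not reported here. H2-Q4, H2-T23, Psmb8 and Psmb9 were described by mouse after their values were seen. Alternatives were a pseudocount of 0.1, no filter or a filter of 1 TPM, quantile normalization, median centring, no fold limit or 1.5-fold, limma's array weights, a model with the 3 groups kept apart, the prefix as a covariate, the mouse as a block and single PTE+ or sham mice left out.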

Additional observations from a re-analysis of the deposited data

Results flagged for a closer look

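In groups of 4 to 10 libraries, a value was marked where its gap to the next, as a share of the group's range, passed Dixon's critical value. Chance marks about 1 in 20 groups, and 10 of 72 groups of the named members were marked. All values here are log2(TPM + 1).

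Sham mouse 9_10 was the high value for Ifit3 on both sides, at 6.797 ipsilaterally (next sham mouse 5.08) and 6.757 contralaterally (next 5.19), and for Irf1 contralaterally at 5.702 (next 4.97). Ipsilateral PTE- mouse 9_14 was the low value for Irf1 (0.0, next 4.27), Isg15 (0.0, next 2.68) and Ddx58 (1.0, next 2.47), and the high value for Sp100 (4.767, next 3.63). The other 3 were Oasl2 in ipsilateral PTE+ mouse 9_17 (3.873, next 3.51), Irf1 in contralateral PTE- mouse 9_12 (5.557, next 4.91) and Psmb10 in contralateral PTE- mouse 9_20, the lowest of its group (6.226, next 6.78).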

How the results depend on the processing

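Percentages here are the share of all genes called in either direction. The number of members called after injury ipsilaterally (1, 1.62%) was 2 with no filter (1.9%) and with quantile normalization (3.05%). It was 3 with the name prefix as a covariate (1.9%) and 0 at 1.5-fold (0.853%). With array weights, which count a library less the more it deviates, it was 12, but calls rose among all genes too (8.08%). The number was 3 without the PTE- library 9_14 (3.83%) and 19 without sham 9_10 and PTE- 9_14 (4.55%). It ranged from 0 to 14 with single PTE+ or sham mice left out (1.32% to 4%). Contralaterally (0, 4.05%) it was 1 with median centring (Psmb10, 0.33, 3.88%) and 1 with array weights (Stat2, lower by -0.51, 5.76%), and 0 to 4 with mice left out (2.21% to 8.34%). For PTE+ against PTE- mice it was 1 ipsilaterally (0, 0.573%) with array weights (Usp18, 0.51, 4.21%) and 0 with any PTE+ mouse left out (0.22% to 1.15%). Contralaterally (1, 2.79%) it was 0 with no filter (2.32%) and with the fit of all 3 groups (2.15%). The 1 member called with array weights (7.94%) was Igtp (-0.54), not Sp100. The number was 1 with each PTE+ mouse left out, B2m without 9_17 (1.96%) and Bst2 without 8_17 (4.14%). Without 8_10 (2.55%) or 9_18 (4.66%) it was Sp100. Between hemispheres (0, 2.71%) it was 1 with no filter (2.33%) and 1 with a filter of 1 TPM (3.24%), Dhx58 in both (-0.40), and 0 to 1 with mice left out (2.41% to 3.74%). For the hemisphere difference (0, 6.5%) it was 1 with no filter (5.55%) and 1 with a filter of 1 TPM (6.99%), Parp14 in both (0.89). It was 1 with median centring (Psmb10, -0.34, 5.67%) and 0 to 2 with mice left out (3.78% to 10.3%). The mouse as a replicate block (0 members called) and the interaction over libraries (0) changed no call. The causes were not tested.

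Tapbp ranged from 0.26 to 0.47 and Sp100 from 0.24 to 0.87 with mice left out, and neither turned its direction. Over the settings that keep all mice, the sign was kept by 27 of 36 members after injury ipsilaterally and 22 of 35 contralaterally, 26 of 37 and 22 of 35 for PTE+ against PTE- mice, 36 of 36 between hemispheres and 18 of 36 for the hemisphere difference. The smallest adjusted p of any member under any alternative was 0.104 (Tapbp, array weights, limma). TPM holds no depth, so the precision of low members cannot be given.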

Other observations

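Some mice were high on 1 side only. PTE- mouse 9_20 had a mean log2(TPM + 1) over the 43 genes of 4.62 ipsilaterally and 4.08 contralaterally, and PTE- mouse 9_12 had 4.09 ipsilaterally and 4.76 contralaterally. Contralaterally, Irgm1 measured 73.9 TPM in mouse 9_12, near the 76.3 TPM of sham mouse 9_10.

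The IFIT genes did not move as a block in PTE+ mouse 9_18. This mouse had the lowest Ifit3 on both sides (3.26 and 2.78 TPM), while its Ifit2 was the highest ipsilateral value (11.7 TPM, median of PTE- mice 4.72) and the second highest contralateral one (7.6 TPM).

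Class II genes had lower medians than the classical class I heavy chains H2-D1 and H2-K1 (402 and 259 TPM). Cd74, the invariant chain, ranged from 9.03 to 261 TPM (median 27.8) over the 37 libraries, H2-Ab1 from 4.39 to 126 TPM (median 13.5) and H2-Aa from 0 to 93.5 TPM (median 8.91).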
